A study of Mus musculus with 4 samples.

Results

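Genes of the NRF2 antioxidant response were read in the livers of mice with and without Drp1, the dynamin-related GTPase that divides mitochondria. They comprised the gene for NRF2 itself, Nfe2l2, and its known targets Nqo1, Gclc, Gclm, Hmox1, Txnrd1, Srxn1, Cbr3, Gsr and Osgin1. They were found by gene symbol among the gene probes of the array, which gave 10 of the 30439 genes or transcripts measured and 12 of the 39429 probes. Hmox1 and Gsr had a second probe, and all 12 probes were well above background on every array.

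Liver total RNA was hybridized to 4 one-color Agilent arrays, with 1 array for each group. The control livers (Cont) came from littermates that carried the floxed Drp1 allele (Drp1 flox/flox), and the Drp1LiKO livers from mice in which Cre driven by the albumin promoter (Alb-Cre), active in hepatocytes, removes Drp1. All were male C57BL/6J mice on a high-fat diet (HFD) for 24 weeks, and the labels give no age. The Cont refed and Drp1LiKO refed mice were fasted for 17 h and refed for 4 h. The labels of the other 2 arrays, Cont and Drp1LiKO, name no feeding state. These arrays were read as fasted from the description of the experiment in the study, they are shared with earlier submissions, and they are called here the arrays without refeeding. The number of mice behind each RNA was not given in the sources used here.

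NRF2 is a transcription factor that KEAP1 holds in the cytoplasm and sends for degradation. Oxidants and electrophiles modify KEAP1, and NRF2 then enters the nucleus, pairs with a small MAF protein and binds antioxidant response elements. In the liver it is known for raising enzymes that make and recycle glutathione, reduce quinones and carbonyls, and clear peroxides.

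Of the 10 genes, Cbr3 differed most between the genotypes, and Srxn1, Nqo1 and Hmox1 also had higher signals in Drp1LiKO than in Cont on both pairs of arrays. The genes for glutathione synthesis and recycling, Gclc, Gclm and Gsr, did not share that pattern, and the differences of Nfe2l2 and Txnrd1 were within 1.35 and 1.16 measurement errors of 0. Osgin1 was the member whose genotype difference had opposite signs in the 2 feeding states by more than 1 measurement error each. With 1 array per group, differences between mice were not measured. The error given with a log2 difference is a standard error (SE) from the error model of the scanner software, mostly its fixed proportional term, and covers the measurement only. Signals are given relative to the 75th percentile of their own array, so that 1 means equal to that percentile.

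The bases upstream of the starts are shown, as a description only, for the members that held either of the motifs searched. The core of the antioxidant response element, TGACNNNGC, was searched on both strands in the 250 bases before each RefSeq start (GRCm38.p6), and 10.2% of 32851 promoters held it. The AP-1 site TGANTCA, which reads alike on both strands and can overlap that core, was in 6.75% of them. RefSeq promoters were matched for 7 of the 10 genes, and those of Gclc, Hmox1 and Gsr were not analysed here. The core was found in 3 of the 7 and the AP-1 site in 2. Counted by gene in the same way, 11.5% and 7.82% of 27025 genes held them. In the following stretches, written 5′ to 3′ in the direction of the gene, capitals mark the match.
Nfe2l2, antioxidant response element core 240 bases before the start, chr2:75704879-75704913, minus strand: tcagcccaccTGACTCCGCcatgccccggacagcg
Gclm, antioxidant response element core in reverse complement 134 bases before the start, chr3:122245407-122245447, plus strand: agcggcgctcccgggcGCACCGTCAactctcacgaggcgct
Txnrd1, antioxidant response element core in reverse complement 92 bases before 1 of its 3 starts, chr10:82859098-82859138, plus strand: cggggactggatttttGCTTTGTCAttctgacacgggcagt
Srxn1, AP-1 site 102 bases before the start, chr2:152105406-152105444, plus strand: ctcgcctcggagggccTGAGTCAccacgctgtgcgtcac
Srxn1, AP-1 site 45 bases before the start, chr2:152105463-152105501, plus strand: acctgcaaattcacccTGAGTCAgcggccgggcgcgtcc
Osgin1, AP-1 site 97 bases before the start, chr8:119437034-119437072, plus strand: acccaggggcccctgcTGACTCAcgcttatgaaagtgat
Neither pattern of letters was in the windows of Cbr3 and Nqo1. A match is a run of letters and not a measured binding site, and elements farther from the start lie outside these windows.

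Without refeeding, 7 of the 10 genes were higher and 3 lower in Drp1LiKO than in Cont, and the share of all genes on each side was not computed. Of the 3, Gclc and Gsr were at -0.002 and -0.03 on the log2 scale, and quantile normalization turned them to 0.24 and 0.19. Cbr3 was at least 2-fold higher, 1 of the 10 genes, against 8.06% of the 18040 genes that could be called, and 0 of the 10 were at least 2-fold lower, against 5.19%. After refeeding, 3 of the 10 genes were at least 2-fold higher in Drp1LiKO, namely Cbr3, Srxn1 and Hmox1, against 8.05% of 17446 genes, and 0 were at least 2-fold lower, against 6.33%. Among the 14447 genes that, like the 10 genes, were detected above background on each of the 4 arrays, fewer passed the 2-fold threshold upward, 2.75% without refeeding and 3.12% after it. The 10 genes had a median log2 difference of 0.21 without refeeding and 0.26 after it, and the medians of the 14447 genes were -0.12 and -0.08. The scale of the arrays moved both medians of all genes, which were -0.01 and -0.008 after quantile normalization. Relative to the median of all genes, the 10 genes lay 0.33 higher without refeeding and 0.34 higher after it.

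**Figure D1:**
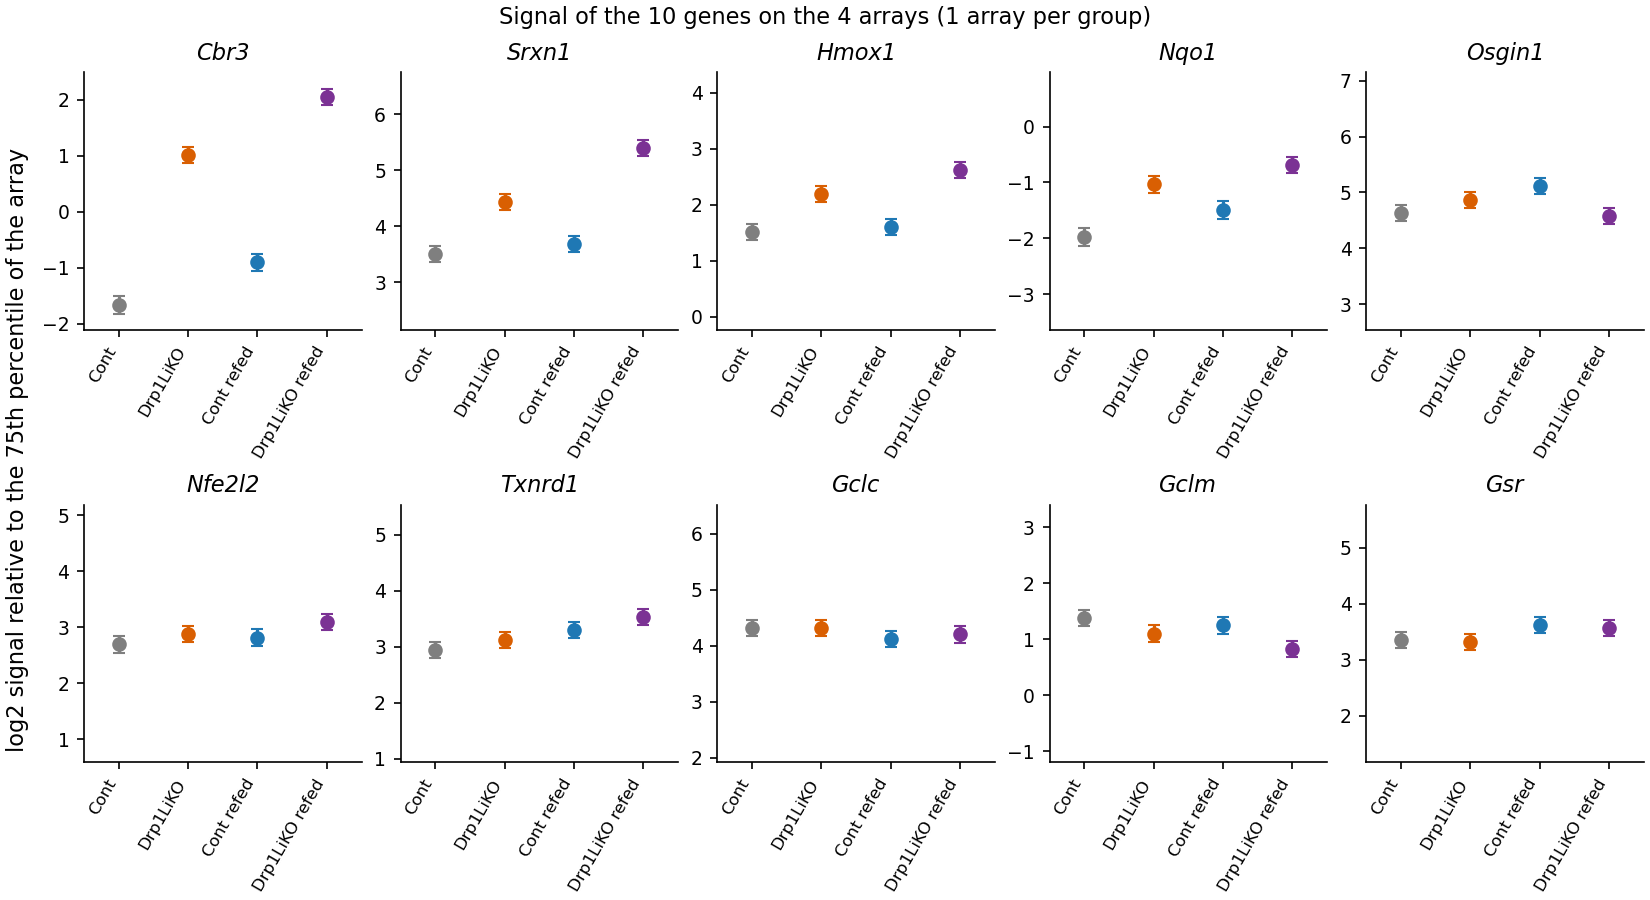
Log2 signal relative to the 75th percentile of the array (y axis) for the 10 genes on the 4 arrays (x axis), with 1 panel per gene, all panels spanning the same log2 range, and bars of 1 measurement SE. Cbr3 was at 0.315 and 0.534 times the 75th percentile on the Cont arrays and at 2.03 and 4.13 times on the Drp1LiKO arrays, while the 4 points of Gclc and of Gsr lie close together.

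Nfe2l2, the gene for the regulator, had a relative signal of 6.47 in Cont and 7.39 in Drp1LiKO without refeeding, and of 7.05 and 8.53 after refeeding. Both Drp1LiKO arrays were above both Cont arrays. Here and for the genes below, the share of all genes with such a separation was not computed. The log2 difference was 0.19 (SE 0.204) without refeeding and 0.28 (SE 0.204) after it, at most 1.35 SE from 0. NRF2 is regulated mainly by its stability, which an RNA level does not read.

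Cbr3 encodes a carbonyl reductase that uses NADPH, and its probe lies at chr16:93691120-93691179 (mm9, plus strand). Its relative signal was 0.315 in Cont and 2.03 in Drp1LiKO without refeeding, and 0.534 in Cont refed and 4.13 in Drp1LiKO refed. Both Drp1LiKO arrays exceeded both Cont arrays, and the lower Drp1LiKO signal was still above the higher Cont signal. The genotype difference was 6.43-fold without refeeding (log2 2.68, SE 0.213) and 7.73-fold after it (log2 2.95, SE 0.210). Among the 14447 genes it had the 18th and the 20th highest difference.

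Nqo1 encodes the quinone reductase that transfers both electrons of NAD(P)H at once and is a widely used readout of NRF2. Its relative signal was 0.254 in Cont and 0.489 in Drp1LiKO without refeeding, and 0.356 and 0.624 in the refed pair. The 2 genotypes did not overlap, a separation whose share over all genes was not computed. The genotype difference was 1.93-fold without refeeding (log2 0.95, SE 0.219) and 1.75-fold after it (log2 0.81, SE 0.218), so that neither reached 2-fold. After the normexp background correction both were smaller, 0.59 and 0.50 on the log2 scale.

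Srxn1 encodes sulfiredoxin, which restores peroxiredoxins that were over-oxidized by peroxide. Its probe lies at chr2:151937009-151937068 (mm9, plus strand). Its relative signal was 11.3 in Cont and 21.6 in Drp1LiKO without refeeding, and 12.8 and 42.1 after refeeding. The Drp1LiKO refed array stood highest and the 2 Cont arrays were close to each other. The difference was 1.90-fold without refeeding (log2 0.93, SE 0.204) and 3.29-fold after it (log2 1.72, SE 0.204). Quantile normalization moved the value without refeeding to 1.19, past 2-fold.

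Hmox1 encodes heme oxygenase 1, which opens the heme ring and frees iron and biliverdin. Its brighter probe, at chr8:77624207-77624266 (mm9, plus strand), had a relative signal of 2.84 in Cont and 4.58 in Drp1LiKO without refeeding, and of 3.04 and 6.18 after refeeding. The Drp1LiKO arrays were again above both Cont arrays. The difference was 1.61-fold without refeeding (log2 0.69, SE 0.204) and 2.03-fold after it (log2 1.02, SE 0.204). The second probe read a log2 difference of 0.83 (SE 0.218) and 0.89 (SE 0.227), so that the 2-fold call after refeeding held for 1 of the 2 probes.

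Hmox1 is also a gene of macrophages, and markers of these cells were read on the same arrays. The relative signals of 10 Kupffer cell and macrophage markers summed to 95.5 in Cont and 111 in Drp1LiKO without refeeding, to a value between these in Cont refed, and to 187 in Drp1LiKO refed. Of the 9 markers well above background, Marco and Trem2 were at least 2-fold higher in Drp1LiKO without refeeding, and Marco, Trem2 and Vsig4 after it, and none was at least 2-fold lower. Of all genes that could be called, 8.06% and 8.05% were at least 2-fold higher, and 5.19% and 6.33% lower. The defining markers Adgre1 and Clec4f differed by 0.17 and -0.16 on the log2 scale without refeeding and by 0.55 and 0.34 after it, and no array had Cd163 well above background. The part of these cells in the Hmox1 values was not tested. In whole liver, a change in the number of cells of a type and a change of RNA per cell cannot be told apart.

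Gclc, the catalytic subunit of the enzyme that starts glutathione synthesis, had a relative signal of 20.0 in both Cont and Drp1LiKO without refeeding, and of 17.5 and 18.4 after refeeding. Its modifier subunit Gclm had 2.61 in Cont and 2.15 in Drp1LiKO without refeeding, and 2.37 and 1.78 after refeeding. Gclm was thus lower on both Drp1LiKO arrays, by log2 differences of -0.28 (SE 0.204) and -0.42 (SE 0.204), the second of them 2.03 SE from 0. The log2 differences of Gclc were -0.00 (SE 0.204) and 0.07 (SE 0.204). The first of these turned to 0.24 after quantile normalization and to 0.05 after the normexp correction.

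Gsr, glutathione reductase, which returns oxidized glutathione to its reduced form, had a relative signal of 10.1 in Cont and 9.96 in Drp1LiKO without refeeding. After refeeding it had 12.3 and 11.9. Both genotype differences were within 0.27 SE of 0, and the second probe read -0.03 and 0.02. Their sign turned with the scaling, from -0.03 and -0.05 to 0.19 and 0.09 after quantile normalization.

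Txnrd1, cytosolic thioredoxin reductase, had a relative signal of 7.73 in Cont and 8.69 in Drp1LiKO without refeeding, and of 9.85 and 11.6 after refeeding. Both refed arrays were above both arrays without refeeding, and the share of all genes with this separation by feeding state was not computed. The genotype differences were 0.17 (SE 0.204) and 0.24 (SE 0.204).

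Osgin1 encodes a growth inhibitor induced by oxidative stress. Its relative signal was 24.7 in Cont and 29.0 in Drp1LiKO without refeeding, and 34.7 and 23.9 after refeeding. Its highest signal was therefore in Cont refed and its lowest in Drp1LiKO refed, and the genotypes overlapped. The genotype difference was 0.23 (SE 0.204) without refeeding and -0.54 (SE 0.204) after it, and these signs were the same under every scaling run.

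**Figure D2:**
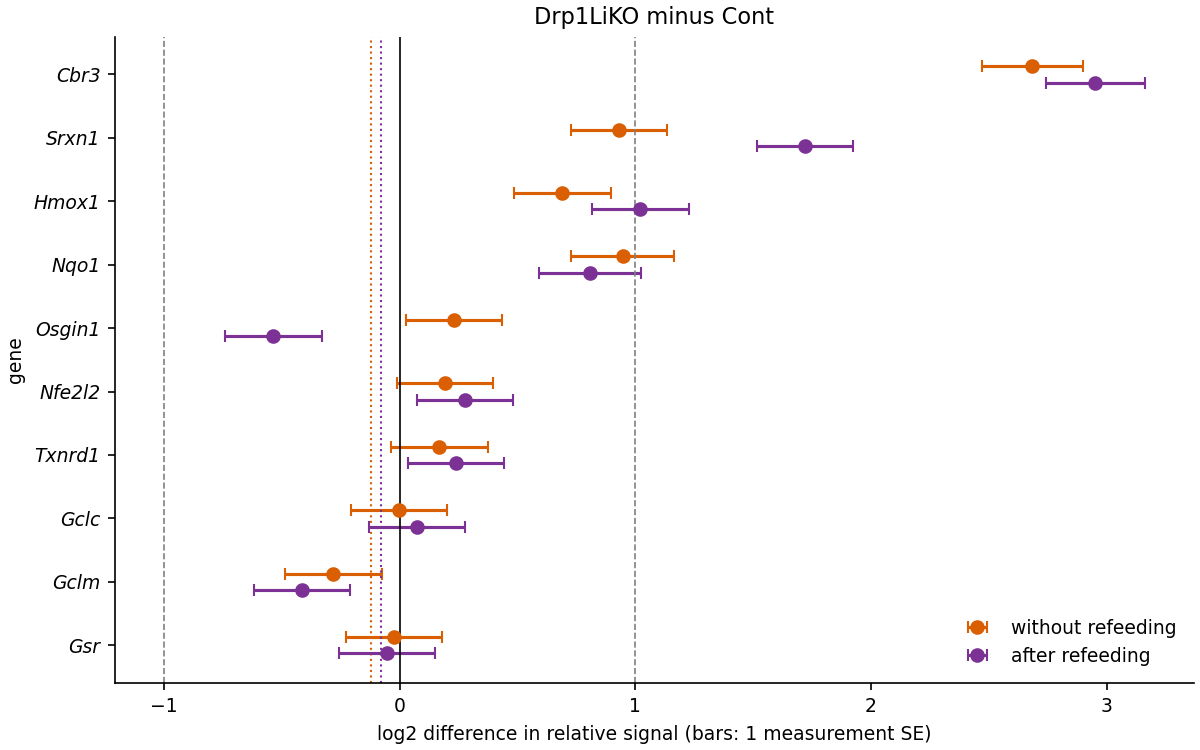
Log2 difference in relative signal between Drp1LiKO and Cont (x axis) for each gene (y axis), without refeeding and after refeeding. Bars are 1 measurement SE, dashed lines mark 2-fold and dotted lines the medians of the 14447 genes. Cbr3 lies at 2.68 and 2.95, and Osgin1 lies on opposite sides of 0, at 0.23 and -0.54.

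The spread of a difference over all genes gives a scale for these values. In 5% of the 14447 genes the genotype difference without refeeding was above 0.77, and Cbr3, Nqo1 and Srxn1 were among them. After refeeding the corresponding value was 0.81, and Cbr3, Srxn1, Hmox1 and, narrowly, Nqo1 lay above it. More than 2 SE from 0 were 4 of the 10 genes without refeeding, all higher, and 6 after it, 4 higher and 2 lower. The same held for 33.7% and 35.2% of the 14447 genes, so that a difference of that size was common on these arrays.

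The genotype difference averaged over both feeding states was tested with limma, in a model with genotype and feeding state that leaves 1 residual degree of freedom. This model takes any change of the genotype difference with feeding as error, so that it does not test each state. At a Benjamini-Hochberg adjusted p under 0.05, the model called 0 of the 10 genes and 0% of 16744 genes, whereas 4746 genes had an unadjusted p under 0.05. The genotype effect of Cbr3 was 2.82 on the log2 scale (SE 0.154, limma adjusted p = 0.072). The effects of Srxn1, Nqo1 and Hmox1 were 1.33, 0.88 and 0.86, with limma adjusted p of 0.109, 0.104 and 0.109. Those of the other 6 genes were between -0.35 and 0.23, and their adjusted p were 0.216 or higher. When only these 14447 genes detected on each array entered the fit, limma called 4 of the 10 genes, against 8.4% of the genes tested. These were Cbr3 (adjusted p = 0.0113), Nqo1 (0.0399), Srxn1 (0.0416) and Hmox1 (0.0457), each higher in Drp1LiKO in 2 of 2 pairs of arrays. With an intensity trend on the 16744 genes, limma called Cbr3 (adjusted p = 0.0171) and none of the other 9. Nqo1, Srxn1 and Hmox1 passed in the restricted fit only, and over all settings run the adjusted p of Cbr3 ranged from 0.0113 to 0.175.

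**Figure D3:**
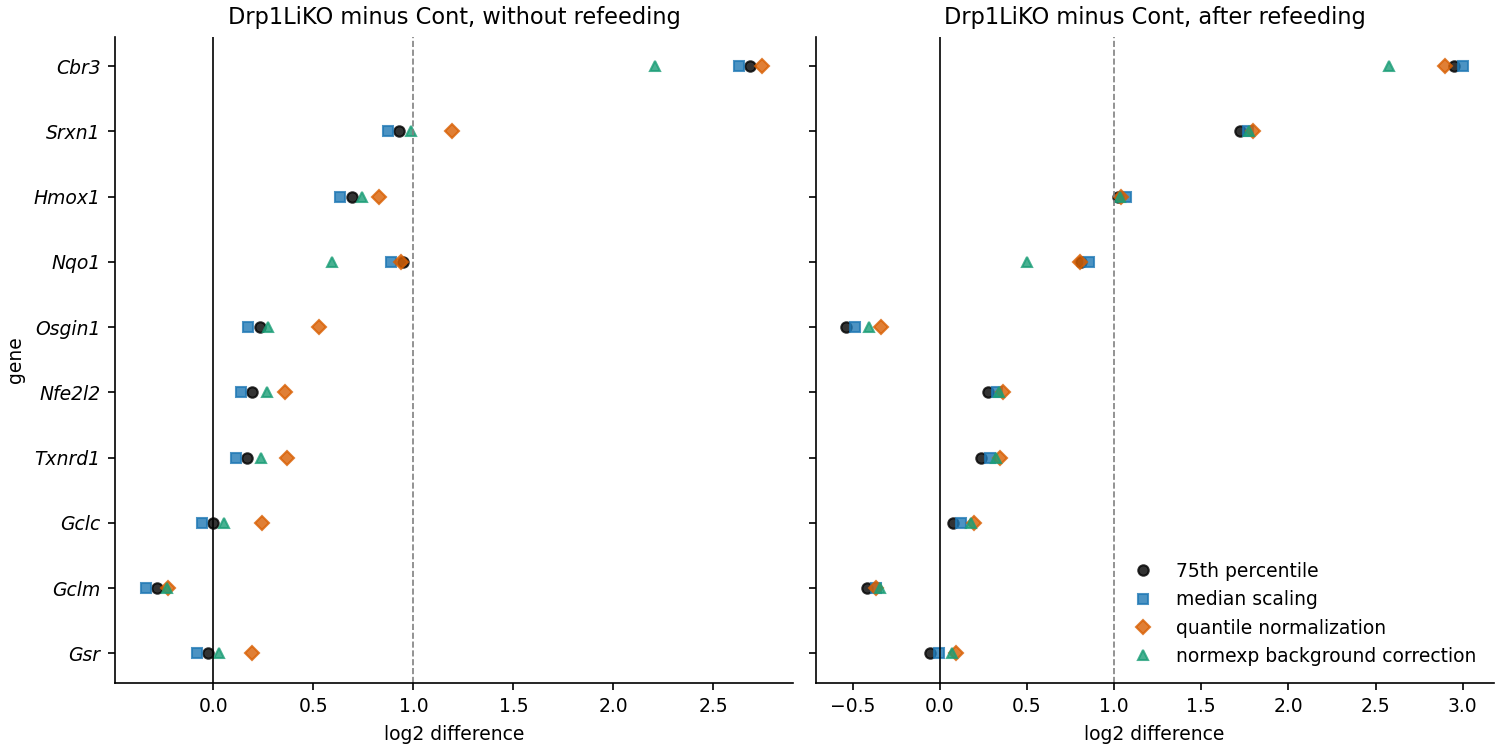
Log2 difference between Drp1LiKO and Cont (x axis) for each gene (y axis) under 4 ways of scaling the arrays, without refeeding (left) and after refeeding (right), with a dashed line at 2-fold. Srxn1 without refeeding moved from 0.93 to 1.19 under quantile normalization, and Gclc and Gsr lie on either side of 0.

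Refeeding gave smaller differences than genotype for Cbr3, and the arrays of Cont and Drp1LiKO without refeeding serve again in these comparisons. In Cont, 0 of the 10 genes were at least 2-fold higher after refeeding, against 4.47% of 16437 genes, and 0 were at least 2-fold lower, against 5.83%. In Drp1LiKO, Cbr3 was the 1 gene at least 2-fold higher, against 5.61% of 18329 genes, and 0 were at least 2-fold lower, against 7.15%. The 10 genes had a median log2 difference of 0.23 in Cont and 0.30 in Drp1LiKO, beside 0.11 and 0.12 for the 14447 genes. Quantile normalization lowered these medians to 0.09 and 0.10 for the 10 genes and to 0.05 and 0.04 for the 14447 genes. Cbr3 differed by 0.76 (SE 0.219) in Cont and by 1.03 (SE 0.204) in Drp1LiKO, and the latter fell below 2-fold, to 0.94 and 0.93, after quantile normalization and the normexp correction.

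Srxn1 differed by 0.17 (SE 0.204) with refeeding in Cont and by 0.96 (SE 0.204) in Drp1LiKO. Nqo1 differed by 0.49 (SE 0.229) and 0.35 (SE 0.206), Txnrd1 by 0.35 (SE 0.204) and 0.42 (SE 0.204), and Hmox1 by 0.10 (SE 0.204) and 0.43 (SE 0.204). These genes had higher signals after refeeding in both genotypes, although the second Hmox1 probe read -0.02 and 0.03. The differences of Gclc were -0.19 and -0.11 and those of Gclm -0.14 and -0.27, lower after refeeding in both genotypes and each within 1.33 SE of 0. Gsr differed by 0.28 and 0.25, Nfe2l2 by 0.12 and 0.21, and Osgin1 by 0.49 (SE 0.204) in Cont and -0.28 (SE 0.204) in Drp1LiKO. Quantile normalization moved Srxn1 to 0.005 and 0.61, Nfe2l2 to 0.0006 and 0.002, and Gclc to -0.36 and -0.41. No refeeding difference of the 10 genes changed sign under the scalings run. For refeeding over both genotypes limma called 0 of the 10 genes and 0% of 16744 genes, with 4414 genes at an unadjusted p under 0.05. The smallest adjusted p among the 10 genes was that of Cbr3, 0.169.

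**Figure D4:**
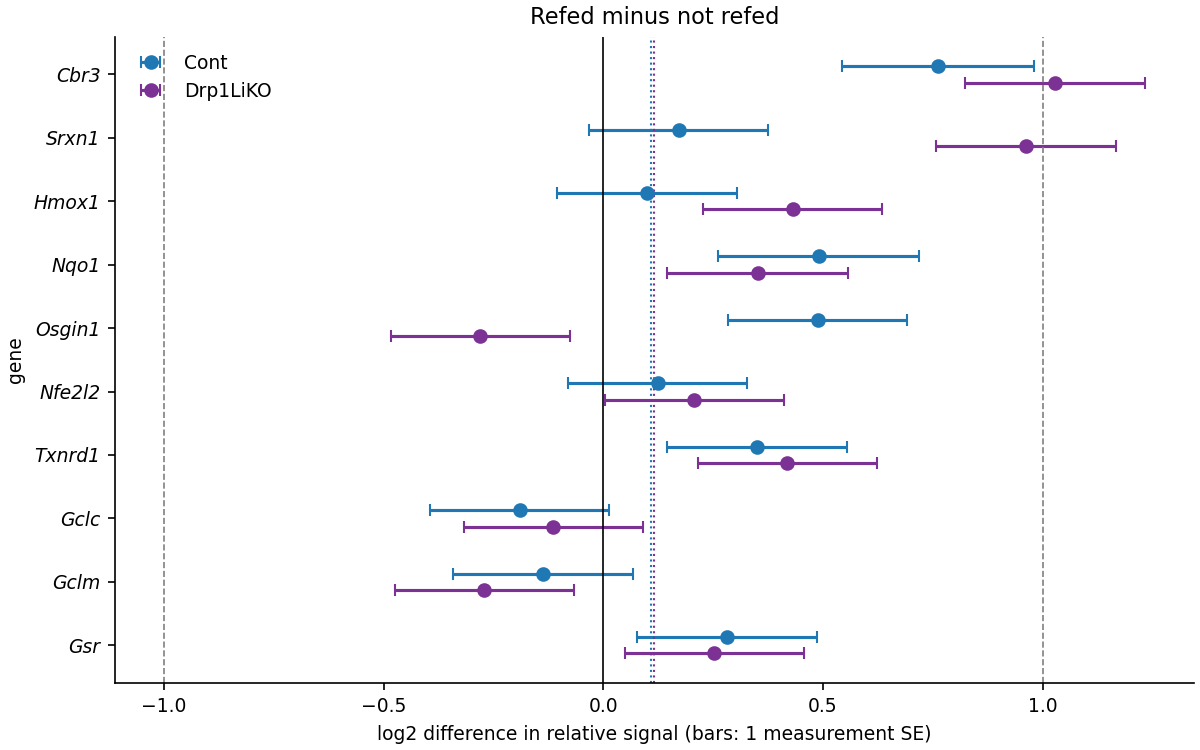
Log2 difference in relative signal between refed livers and livers without refeeding (x axis) for each gene (y axis), in Cont and in Drp1LiKO. Bars are 1 measurement SE, dashed lines mark 2-fold and dotted lines the medians of the 14447 genes. The Srxn1 points, at 0.17 in Cont and 0.96 in Drp1LiKO, stand apart, while those of Gclc and Gclm lie below 0 in both genotypes.

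The genotype difference after refeeding minus that without refeeding was furthest from 0 for Srxn1 and Osgin1. It was 0.79 (SE 0.289) for Srxn1, 2.74 SE from 0, and -0.77 (SE 0.289) for Osgin1, 2.66 SE from 0. For Hmox1 it was 0.33 (SE 0.289) and for Cbr3 0.27 (SE 0.299), and for the other 6 genes it lay between -0.14 and 0.08. This difference was not tested, since each group has 1 array.

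Another 48 genes of the NRF2 pathway were read on the arrays, and at least 1 array had a signal well above background for 46 of them. Of these 46, 6 were at least 2-fold higher in Drp1LiKO without refeeding and 5 after it, against 8.06% and 8.05% of all genes that could be called. Among the 14447 genes detected above background on each array, as most of the 46 were, these shares were 2.75% and 3.12%. In neither comparison was any of the 46 at least 2-fold lower, against 5.19% and 6.33%. Their median log2 differences were -0.08 and -0.11, close to those of all genes. Gsta1, Gsta2 and Sqstm1 were at least 2-fold higher in both comparisons. Gsta1, a glutathione S-transferase, had a relative signal of 0.940 in Cont and 14.8 in Drp1LiKO without refeeding, and of 2.28 and 32.1 after it. Its difference was 15.7-fold and 14.1-fold (log2 3.97 and 3.82). Gsta2 differed by 2.01 and 2.24, and since the 2 transferases have near-identical sequences their probes may share signal. Sqstm1, whose protein p62 binds KEAP1, had 7.57 and 20.2 without refeeding and 7.24 and 19.9 after it, log2 differences of 1.42 (SE 0.204) and 1.46 (SE 0.204).

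The regulators Keap1, Bach1 and Mafg differed by -0.24, -0.37 and -0.10 without refeeding and by -0.10, -0.14 and -0.09 after it. Of the other small MAF partners, Mafk differed by 0.92 without refeeding and by 1.04 after it, and Maff by 0.14 and -0.48. The glutathione peroxidase Gpx2 differed by 1.67 (SE 0.363) after refeeding, a value that rests on a signal in Cont refed not well above background. Gss, which completes glutathione synthesis after Gclc and Gclm, differed by 0.51 (SE 0.204) and 0.55 (SE 0.204). The cystine transporter Slc7a11 was well above background on none of the arrays. Gstm3, Gstm4 and Abcc4 were at least 2-fold higher without refeeding, by 1.22, 1.05 and 1.24, and differed by 0.59, 0.60 and 0.82 after it.

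None of the 4 thioredoxin and peroxiredoxin genes, the 6 genes for NADPH supply or the 5 iron and heme genes differed at least 2-fold between genotypes. The ferritin subunits Ftl1 and Fth1, which store the iron that heme oxygenase 1 frees, differed by -0.50 and -0.38 without refeeding and by -0.37 and -0.20 after it. The 8 antioxidant enzymes Sod1, Sod2, Sod3, Cat, Gpx1, Prdx2, Prdx3 and Prdx5, listed for comparison, had median differences of -0.45 and -0.48, and none reached 2-fold. Of 6 genes of the ATF4 stress response, also listed for comparison, 4 and 5 were at least 2-fold higher, with medians of 2.93 and 3.51. The shares of all genes that could be called were 8.06% and 8.05%.

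**Figure D5:**
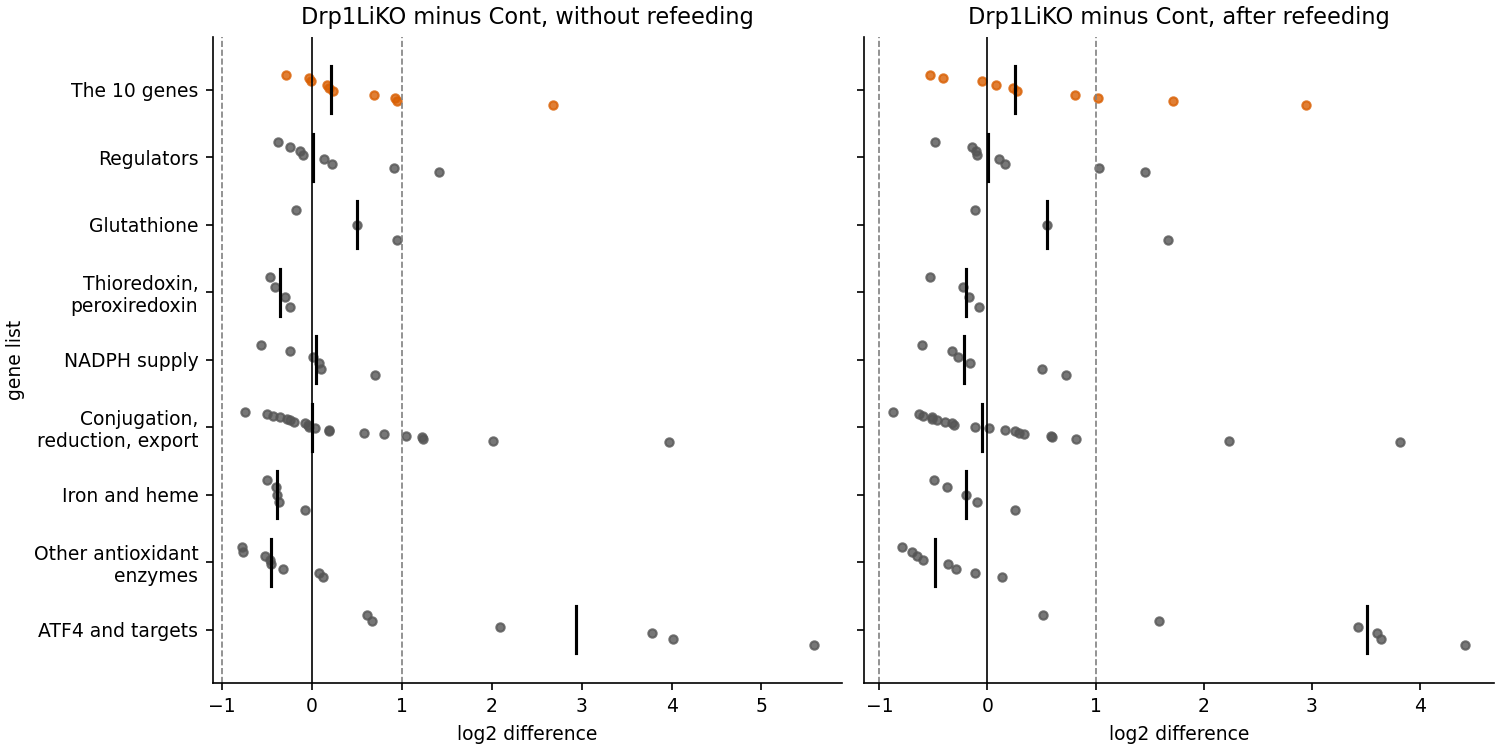
Log2 difference between Drp1LiKO and Cont (x axis) without refeeding (left) and after refeeding (right) for the 10 genes and for the other listed genes by role (y axis), 1 point per gene detected above background on 1 array or more. Thick vertical strokes are medians, 0.21 and 0.26 for the 10 genes, and dashed lines mark 2-fold.

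On the arrays as a whole, the 75th percentile of the gene spots ranged from 357 to 722 signal units, 48.7% to 58.2% of the 43020 gene spots were well above background, and 0 were saturated. All arrays came from 1 slide and 1 scan. The summed relative signal of 6 hepatocyte markers was lower on both Drp1LiKO arrays, 1160 beside 1490 in Cont without refeeding and 1270 beside 1790 after it. Alb weighed most in this sum, with 865 in Cont without refeeding, and the markers did not move together. Alb, Ttr and Apoa1 were lower in Drp1LiKO in both feeding states. Tat (log2 1.04 and 0.98) and Cps1 (0.60 and 1.24) were higher in both, and Pck1 differed by 0.46 and -0.51. The sum of 5 cholangiocyte markers was higher on both Drp1LiKO arrays, 1.08 beside 0.494 and 1.02 beside 0.564, and Epcam among them was at background on every array. That of 6 stellate cell markers was 4.21 in Drp1LiKO and at most 2.70 on the other arrays, and that of 5 neutrophil markers ranged from 3.54 to 10.4 with the highest value in Drp1LiKO refed. The sums of the endothelial, T and B cell and erythroid markers were lower on both Drp1LiKO arrays. They were 45 beside 53.9 and 38.5 beside 57 for endothelial markers, and 17.1 beside 20.8 and 15.5 beside 21.5 for T and B cell markers. For erythroid markers they were 67.3 beside 119 and 134 beside 144. The part of these cells in the values of the 10 genes was not tested. Dnm1l, which encodes Drp1, had a relative signal of 2.03 in Cont and 1.75 in Drp1LiKO without refeeding, and of 1.58 and 1.46 after it, differences within about 1 SE. Whether its probe lies in the deleted part of the gene was not given in the sources used here, so that the genotypes are those of the labels.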

How the data were processed

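The values used were intensities, the processed signals that the authors deposited as scanner output. Their headers name Feature Extraction 10.7.1.1, whereas the submitters' processing notes name version 9.5.1.1. The software had subtracted the background on every array, and these linear values carry no normalization between arrays. The authors' second table of linear intensities, quantile-normalized (at least 99.7% of the probes of each array within 0.05 log2 of a quantile normalization recomputed here), served as an alternative. The array design and RNA kit of the labels differ from those of the study's methods, and the files carry the design of the labels. The methods also give a different length of the fast.

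Outlier spots were dropped (37 probes), log2 signals were set relative to the 75th percentile of the gene spots, and repeated spots were averaged. Of 28389 probes with a RefSeq accession, 26755 were matched to a gene. A gene with several probes was read from the probe detected above background on more arrays than its others, ties going to the brightest. A call needed a 2-fold difference with the brighter side well above background. limma 3.58.1 (R 4.3.3) was fitted to genes detected above background on 2 arrays or more. Python 3.11.15 with numpy 2.4.6, pandas 2.3.3 and matplotlib 3.10.9 was used. The fit and the rule were tested on simulated data. The alternatives were median scaling, quantile normalization, the authors' table, normexp with an offset of 50, the median over probes, other filters on dim probes, a 1.5-fold threshold and other limma settings. With 1 array per group, the number of arrays limits the precision.

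The members, lists and rules were chosen with earlier results of these data known. All 10 members were named with every probe, as were pathway genes at least 2-fold higher in both genotype comparisons or lower in either. The other genes named here were chosen after their values were seen. Probe positions are mm9, for which no annotation was used, so that exons were not assigned.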

Additional observations from a re-analysis of the deposited data

Results flagged for a closer look

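Osgin1 went in opposite directions in the compared groups. Its genotype difference was 0.23 without refeeding and -0.54 after refeeding, which lay 1.14 and 2.63 measurement SE from 0. Its refeeding difference was 0.49 in Cont and -0.28 in Drp1LiKO, which lay 2.39 and 1.37 measurement SE from 0. Both pairs differ by -0.768 on the log2 scale. This is the same quantity, computed from the same signals in another order, so that the match adds no information. The difference was not tested, since each group has 1 array.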

How the results depend on the processing

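No paired analysis was possible because each group has 1 array, and for the same reason no replicate could be left out. Without refeeding, the members at least 2-fold higher in Drp1LiKO numbered 2 under quantile normalization and in the authors' matrix, where the median of the members was 0.449, and 4 at a 1.5-fold threshold. For refeeding in Drp1LiKO the count was 2 under median scaling and at a 1.5-fold threshold, and 0 under quantile normalization, in the authors' matrix and after the normexp correction. At the 1.5-fold threshold it was 1 for refeeding in Cont, and for the difference of the genotype differences 1 member was higher and 1 lower. The shares of all genes under these alternative scalings and the 1.5-fold threshold were not computed. The median of the members for refeeding was 0.0858 in Cont and 0.104 in Drp1LiKO under quantile normalization, and the median of the difference of the genotype differences turned from 0.0729 to -0.0367. No called value changed sign. For single members, 319 alternative values stayed within the measurement error or on their side of the threshold, 26 moved by more than that error and 5 passed the limma threshold. These counts do not measure robustness, since not all the alternatives are independent. The median over probes leaves a gene with 1 probe unchanged, and the authors' matrix repeats the quantile normalization. For the genotype effect, limma called 4 members and 1214 genes when only genes well above background on all 4 arrays entered, 1 member and 474 genes with an intensity trend, and 1 gene without feeding state in the model. For the refeeding effect the first of these settings called 15 genes. Except where a setting changes the genes or the threshold, the cause was not tested. After the normexp correction, which was run with an offset, the differences of Cbr3 and Nqo1 without refeeding fell to 2.21 and 0.59. The part of signal over background in this fall was not tested.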
